A study of Mus musculus with 4 samples.

Results

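The cells described here are the mouse leukaemia cells with the most transcripts of Myc and Fabp5 for their depth. Cells were kept when mitochondrial transcripts, from genes named with the prefix mt-, made up at most 10% of their unique molecular identifiers (UMIs, the counted transcript molecules). Each kept cell received a score, the mean over Myc and Fabp5 of the natural logarithm of 1 plus the UMIs of the gene per 10000 UMIs of the cell. The 8% of kept cells with the highest score were taken, which gave 436 cells of 5456 (7.99%). They are called Myc/Fabp5-high cells below, and the remaining 5020 kept cells are called other cells.

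The libraries were 10x Chromium 3' single-cell RNA libraries from GFP-positive cells sorted from mouse bone marrow. All 4 samples came from leukaemias of c-Kit-positive marrow cells of Hif-1alpha Lox/Lox; CreERT2 mice infected with a retrovirus carrying the leukaemia fusion gene MLL-AF9, which were passed on to C57BL6 recipients (11 weeks). From day 10 after the transplant, recipients had a 5 day course of tamoxifen (1 mg) or of vehicle. PBS or chemotherapy followed, and marrow was collected 3 days after the last treatment. The samples are labelled Hif-1a wt + PBS, Hif-1a KO + PBS, Hif-1a wt + chemotherapy and Hif-1a KO + chemotherapy, with 1 sample in each group. Chemotherapy was 100 mg/kg cytarabine for 5 days with 3 mg/kg doxorubicin for 3 days. The promoter that drives CreERT2, the number of mice behind a sample and the number of primary leukaemias are not stated in the labels. The wild-type samples carry the floxed allele, the inducible Cre and the fusion gene as well.

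Cell barcodes in the count table end in a suffix from 1 to 4, and the sources used here do not say which suffix belongs to which sample. No value below is therefore assigned to a genotype or a treatment. Each suffix is treated as 1 library with no assigned group, and Myc/Fabp5-high cells are compared with other cells of the same suffix. Cells of a library are not replicates, so no p-value is given. Intervals are 95% intervals for counting error only. The number of times a gene differed in the same direction in each of the 4 suffixes is given in place of a test.

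Myc encodes a transcription factor that binds DNA as a dimer with Max, mostly at the E-box CACGTG, and that raises transcription of genes for ribosome assembly, nucleotide synthesis and other routes of cell growth. Fabp5 encodes a small cytosolic protein that binds fatty acids and carries them to nuclear receptors and membranes. Ribosome assembly takes place in the nucleolus, where RNA polymerase I makes the precursor of ribosomal RNA and a large set of factors cuts, modifies and folds it. In acute myeloid leukaemia driven by MLL fusions, Myc transcription is known to depend on bromodomain proteins, and Myc is one of the genes tied to the self-renewal of the leukaemia.

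Myc lies on chromosome 15 (61985391 to 61990374, plus strand, GRCm38) and Fabp5 on chromosome 3 (10012548 to 10016607, plus strand, GRCm38). The lowest member had a score of 1.02 and the highest other cell also had a score of 1.02, so the threshold fell within a continuous range. Within 0.1 of the threshold lay 113 members above it and 139 other cells below it. The score rested on few molecules. A Myc/Fabp5-high cell held a median of 1 Myc UMI and 4 Fabp5 UMIs, and the median other cell held 0 UMIs of either gene. UMIs of both genes were present in 335 members, of Fabp5 alone in 98 and of Myc alone in 3.

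In suffix 1, 165 of 1174 kept cells were Myc/Fabp5-high, a share of 14.1% (exact binomial interval 12.1 to 16.2). In suffix 2 the share was 15.5% (13.5 to 17.6), from 194 of 1251 cells. In suffix 3 it was 2.40% (1.71 to 3.27), from 39 of 1625 cells, and in suffix 4 it was 2.70% (1.92 to 3.69), from 38 of 1406 cells. The intervals of suffixes 1 and 2 overlap, those of suffixes 3 and 4 overlap, and the 2 pairs lie apart. The share follows from the rule and is a description of where the cells were found.

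**Figure D1:**
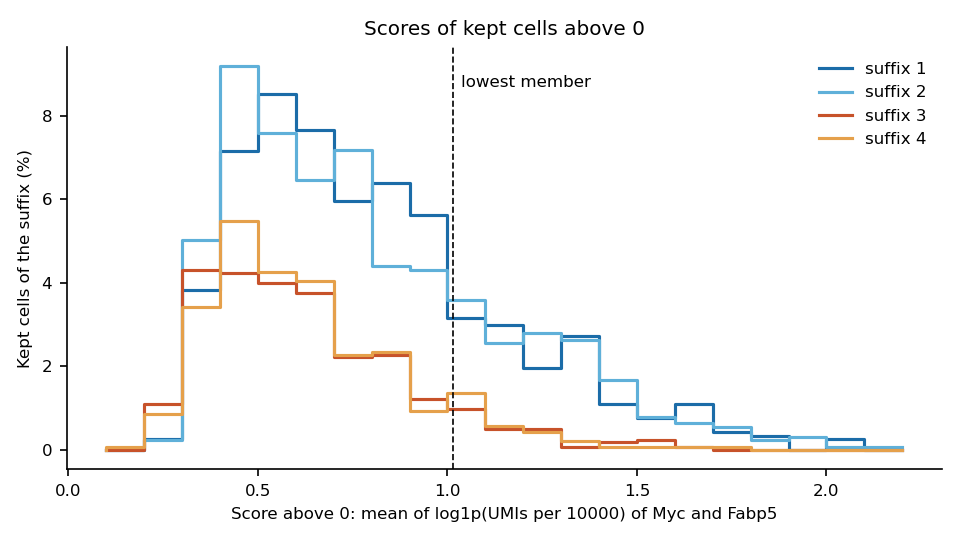
Distribution of the score above 0 in each suffix. The horizontal axis is the score in bins of 0.1, the vertical axis is the percentage of the kept cells of the suffix, each line is 1 suffix and the dashed line marks the lowest member at 1.02. The lines of suffixes 3 and 4 lie below those of suffixes 1 and 2 between scores of 0.4 and 1.5, and no gap separates members from other cells.

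Myc/Fabp5-high cells were deeper than other cells. Their median was 7978 UMIs against 5856 in suffix 1, 7746.5 against 6225 in suffix 2, 9385 against 5222.5 in suffix 3 and 8588 against 5263.5 in suffix 4. Mitochondrial transcripts took a median of between 2.53% and 2.91% of the UMIs of other cells. The same 15 barcode sequences occurred in 2 suffixes, which touched 30 kept cells, of which 2 were members. A doublet caller marked 27 kept cells (0.495%), of which 5 were members (1.15% of members against 0.438% of other cells). At so low a share its calls were not relied on, and no cell was removed for it. Kept cells held 7644436 to 9932649 UMIs per suffix, of which members held 341170 to 1526421. Hif1a, the targeted gene, was at 31.3, 26.9, 24.0 and 14.7 CPM (UMIs of the gene scaled to a total of 1e6) in the members of suffixes 1 to 4. In other cells Hif1a was at 39.99, 37.1, 29.7 and 27.0 CPM. The deleted part of the gene is not given here, and a 3' count that lies outside it would not check the genotype.

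The levels of the genes that chose the cells are given as a description. Myc was at 157, 165, 115 and 126 CPM in the members of suffixes 1 to 4, and at 33.8, 31.8, 8.89 and 11.5 CPM in other cells. Fabp5 was at 640, 559, 525 and 475 CPM in members, and at 134, 121, 67.2 and 65.8 CPM in other cells. These levels were read from the same molecules that chose the cells. The UMIs of each cell were therefore split at random into equal parts, 436 cells were chosen on the first part and both genes were read in the second part, where 63.1% of the chosen cells were also members. Myc was then 1.96-fold, 1.45-fold, 3.45-fold and 4.50-fold higher in the chosen cells of suffixes 1 to 4, compared with 6.20-fold, 7.15-fold, 21.2-fold and 13.6-fold among the UMIs that chose them. Fabp5 was 2.91-fold, 2.68-fold, 4.38-fold and 2.89-fold higher among the UMIs not used, and 6.30-fold, 6.10-fold, 10.4-fold and 10.1-fold among those used. Both genes thus remained higher in the unused UMIs of each suffix, and the excess was smaller.

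Transcripts of Hoxa9 and Meis1, genes of the leukaemia programme, were present in Myc/Fabp5-high cells, below their level in other cells of each suffix. Hoxa9, a homeobox gene raised by MLL fusions, was at 154, 117, 144 and 129 CPM in Myc/Fabp5-high cells of suffixes 1 to 4. In other cells Hoxa9 was at 210, 172, 170 and 157 CPM. Meis1, which encodes a partner of Hoxa9, was at 26.8, 28.2, 47.9 and 32.2 CPM in members and at 50.5, 45.3, 49.0 and 51.6 CPM in other cells. These 2 genes were named after their values had been seen. Over 21 measured genes of the MLL-AF9 list, the median log2 ratio of members to other cells was -0.27. The ratio was negative in each suffix for 11 of the 21 and positive in each for 2. Over all tested genes, defined below, 23.8% were negative and 20.6% positive in each suffix. By the rule given next, 0 genes of the list were higher and 0 lower. Lmo2 and Cdk6, the list's most abundant members, had log2 ratios of -0.20 and -0.04.

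A gene was called higher or lower where the log2 ratio of CPM + 1 between members and other cells was at least 0.32 in size and had the same direction in all 4 suffixes. Each gene is summarised by the median of that ratio over the suffixes. Of 6588 genes with a mean of at least 10 CPM, Myc and Fabp5 left out, 299 were higher in Myc/Fabp5-high cells (4.54%) and 336 were lower (5.10%). Without suffix 1 the lower genes numbered 567, and without suffix 2 they numbered 617. Of the 336 lower genes, 333 and 335 were among these. A rule that asks for every suffix is easier to meet with fewer suffixes, so larger counts are built in. The median over all tested genes was -0.04. Of the 299 higher genes, 127 (42.5%) belonged to at least 1 of the gene lists examined here. These cover growth, metabolism, the cell cycle, stress, interferon, hypoxia and the leukaemia. Together they hold 13.9% of all tested genes and 9.23% of the lower genes. The lists were chosen with earlier results of these data known, so these shares are a description. Among genes of at least 20 CPM, those with the largest ratios were Ung, which removes uracil from DNA (1.38), Phgdh (1.29) and Shmt1 (1.27). The 15 with the largest ratios also held Uhrf1, which carries DNA methylation through replication (1.19), Srm (1.17), Gnl3 (1.16), Atad3a, a mitochondrial membrane ATPase (1.15), Ybx3, an RNA-binding protein (1.12), and Galk1, the galactose kinase (1.11).

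The nucleolar and ribosome assembly list, also the longest, held the most genes higher in Myc/Fabp5-high cells by count, but not by share. The share was larger in the S phase (53.7%), serine, glycine and one-carbon (40%), pyrimidine and deoxynucleotide (36.8%) and chaperone (36.1%) lists. Of 110 measured genes of the nucleolar list, 33 were higher, or 30% beside the 4.54% of all tested genes, 0 were lower, and 77 were called neither way. The ratio was positive in each suffix for 80 of the 110 and negative in each for 1. The list's median log2 ratio was 0.48, and the medians within suffixes 1 to 4 were 0.35, 0.32, 0.78 and 0.62. Summed over the list, Myc/Fabp5-high cells held 13240, 12391, 11567 and 11156 CPM, and other cells held 10133, 9587, 6727 and 7068 CPM. The levels in members lay within 1.19-fold of each other over the 4 suffixes, whereas those in other cells spanned 1.51-fold. Members were chosen by the same score threshold in each suffix, so these spreads are a description. The share of other cells above the median Myc/Fabp5-high cell was 14.6%, 16.8%, 4.10% and 7.09%, so the 2 populations overlapped in every suffix.

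Gnl3 encodes nucleostemin, a GTP-binding nucleolar protein of proliferating progenitors. It was at 138, 125, 138 and 117 CPM in the Myc/Fabp5-high cells of suffixes 1 to 4 and at 82.8, 78.7, 35.6 and 38.0 CPM in other cells. The 4 values in members all exceeded the 4 in other cells, with folds of 1.66 (1.40 to 1.97), 1.59 (1.34 to 1.88), 3.89 (2.85 to 5.22) and 3.08 (2.16 to 4.30). Ncl, which encodes nucleolin, an abundant binder of ribosomal RNA precursors, was at 831, 723, 919 and 824 CPM in members and at 530, 507, 419 and 438 CPM in other cells. Its folds were 1.57 (1.47 to 1.68), 1.43 (1.33 to 1.53), 2.19 (1.96 to 2.45) and 1.88 (1.66 to 2.12), and the levels of the 2 populations did not overlap. Rrp1b and Rrs1, factors of large subunit assembly, had median log2 ratios of 1.05 and 0.95. Npm1, the nucleolar chaperone nucleophosmin and the list's most abundant gene, was at 1806 to 1993 CPM in members and at 1204 to 1556 CPM in other cells. It missed the call, since its fold in suffix 2 was 1.20.

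**Figure D2:**
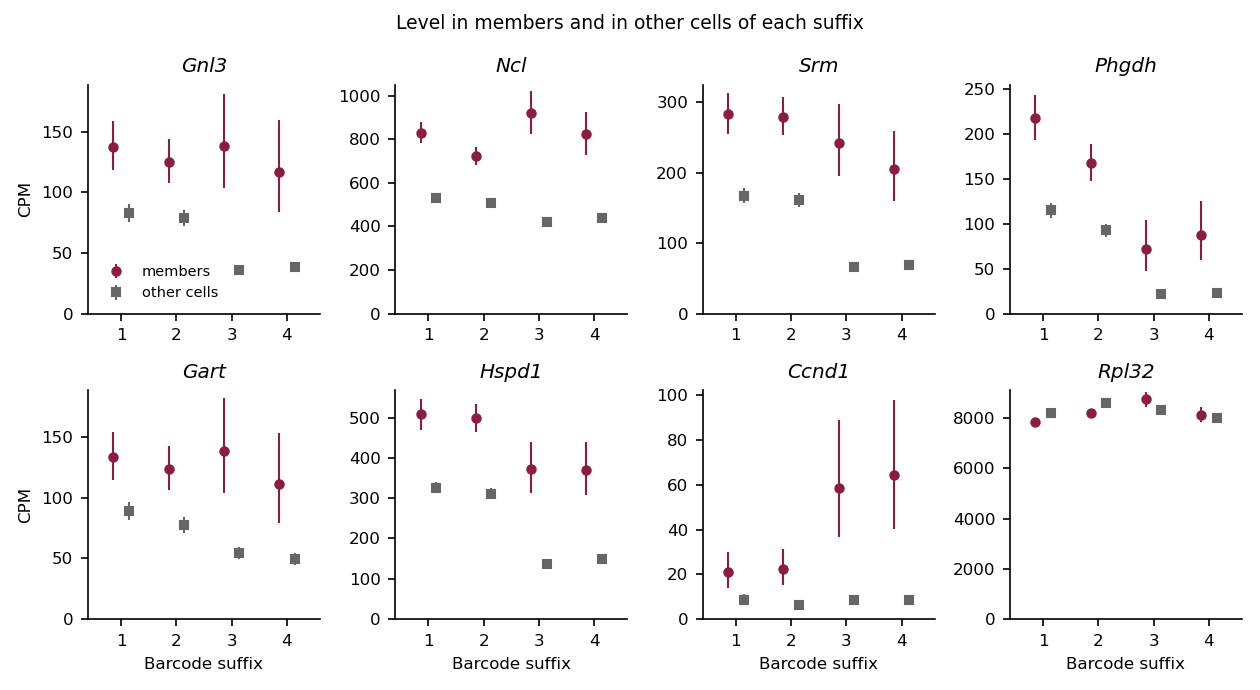
Levels of 8 genes in Myc/Fabp5-high cells (circles) and other cells (squares) of each barcode suffix. The vertical axes are CPM starting at 0 and bars are 95% Poisson intervals. Gnl3, Ncl, Srm, Phgdh, Gart, Hspd1 and Ccnd1 are higher in members of each suffix, while Rpl32, a ribosomal protein gene, lies near 8000 CPM in both.

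Promoter windows from RefSeq (GRCm38.p6, 250 bases before to 50 after an annotated start) were searched for the letters CACGTG, which read the same on both strands. Of the 6588 tested genes, 5161 had at least 1 window by symbol, and 12.9% of these had a window with the letters. The share was 17.3% among 237 matched genes higher in Myc/Fabp5-high cells and 6.92% among 260 matched lower genes. Among 89 matched nucleolar genes it was 21.3%. In the other lists searched it was 25% of 16 purine synthesis genes and 23.1% of 13 polyamine genes. Below the 12.9% were the cytosolic ribosomal protein genes (10% of 60), S phase genes (6.90% of 29) and one-carbon genes (0% of 15). It was not larger in the nucleolar genes called higher, with 16.1% of 31, than in those called neither way, with 24.1% of 58. Over all 32851 windows of the table, 7.15% held the letters. Stretches of 30 bases around the motif are shown for the genes higher in members in the nucleolar, nucleotide and polyamine lists, to let the reader see the site that Myc and Max are known to bind. All of them are written 5' to 3' on the strand of the gene with the motif in capitals.
Utp18, chr11:93885769-93885798, minus strand: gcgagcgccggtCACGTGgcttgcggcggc
Nle1, chr11:82908355-82908384, minus strand: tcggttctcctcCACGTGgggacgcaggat
Tsr1, chr11:74898092-74898121, plus strand: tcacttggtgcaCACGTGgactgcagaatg
Pno1, chr11:17211540-17211569, minus strand: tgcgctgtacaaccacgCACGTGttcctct
Mybbp1a, chr11:72441347-72441376, plus strand: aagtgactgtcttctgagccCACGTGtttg
Nme1, chr11:93968273-93968302, minus strand: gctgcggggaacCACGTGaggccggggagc
Atic, chr1:71557137-71557166, plus strand: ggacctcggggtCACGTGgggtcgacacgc
Sms, chrX:157492466-157492495, minus strand: cccagcggggttCACGTGcatttaaagaaa
The motif began 20 bases before the start in Utp18, 18 in Nme1, 7 in Atic and 196 in Sms, and at base 24, 25, 38 and 41 after the start in Nle1, Tsr1, Pno1 and Mybbp1a. Of these genes, Utp18, Tsr1, Nle1 and Pno1 encode factors of ribosomal subunit assembly and Mybbp1a a nucleolar Myb-binding protein, and their log2 ratios were 0.66, 0.68, 0.86, 0.79 and 0.75. They are named for the motif. A match of letters is a description of the window, and no binding was measured.

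The translation machinery was split. The 81 measured cytosolic ribosomal protein genes had a median log2 ratio of 0.02, and 0 of them were called in either direction. Rpl32 was at 7830, 8192, 8736 and 8131 CPM in members and at 8199, 8598, 8304 and 8004 CPM in other cells. Of 60 genes for initiation, elongation and termination factors, 7 were higher, 2 were lower and the median was 0.21. Eif1ad (0.83), Eif3b, a subunit of the initiation factor that recruits ribosomes (0.68), and Gspt1, a release factor (0.68), were among the higher ones. The most abundant of the list were at or below the level of other cells, with log2 ratios of -0.09 for Eef1a1, which brings aminoacyl tRNA to the ribosome, and -0.14 for Eif1, which helps choose the start codon. Of 21 tRNA synthetase genes and their scaffold genes, 4 were higher, 0 were lower and the median was 0.46. Yars (0.69), Farsb (0.69) and Aimp2 (0.58) led this list. Over the alternatives given at the end, its median ran from 0.14 to 0.50. Of 24 genes for subunits and factors of RNA polymerases I and III, 1 was higher and the median was 0.16. Maf1, a repressor of RNA polymerase III, was at 77.4, 79.3, 58.6 and 70.3 CPM in members and at 104, 94.5, 114 and 109 CPM in other cells, and was not called.

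Mitochondrial protein synthesis and protein folding genes leaned the same way as the nucleolar genes. Of 72 mitochondrial ribosomal protein genes, 8 were higher and 0 lower with a median of 0.24, led by Mrpl12 (0.77) and Mrpl16 (0.67). Of 24 mitochondrial import genes, 7 were higher and 0 lower with a median of 0.26. C1qbp, a matrix protein that supports mitochondrial translation (0.95), Timm9, an intermembrane-space chaperone (0.85), and Tomm5, a subunit of the outer membrane translocase (0.79), led this list. Of 36 chaperone genes, 13 were higher and 0 lower with a median of 0.36. Against other cells nearest in depth the chaperone median was 0.21, and among cells called S in suffixes 1 and 2 it was 0.20. Over the alternatives given at the end, medians ran from 0.038 to 0.32 for mitochondrial ribosomal proteins and from 0.0655 to 0.33 for import. For chaperones they ran from 0.10 to 0.46. Hspd1, the mitochondrial chaperonin, was at 508, 498, 373 and 369 CPM in members and at 326, 311, 136 and 149 CPM in other cells, so all 4 members' values exceeded all those of other cells. Clpp, a matrix protease (0.79), Phb, prohibitin (0.78), and Hspa8, the abundant cytosolic chaperone (0.44), were also higher, while Hsp90ab1 had a ratio of 0.27 and was not called. The 12 mitochondrially encoded genes had a median of -0.04 with 0 called, and of 76 nuclear genes of oxidative phosphorylation 1 was higher, Cycs, which encodes cytochrome c (0.58), and 1 was lower, with a median of 0.13.

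**Figure D3:**
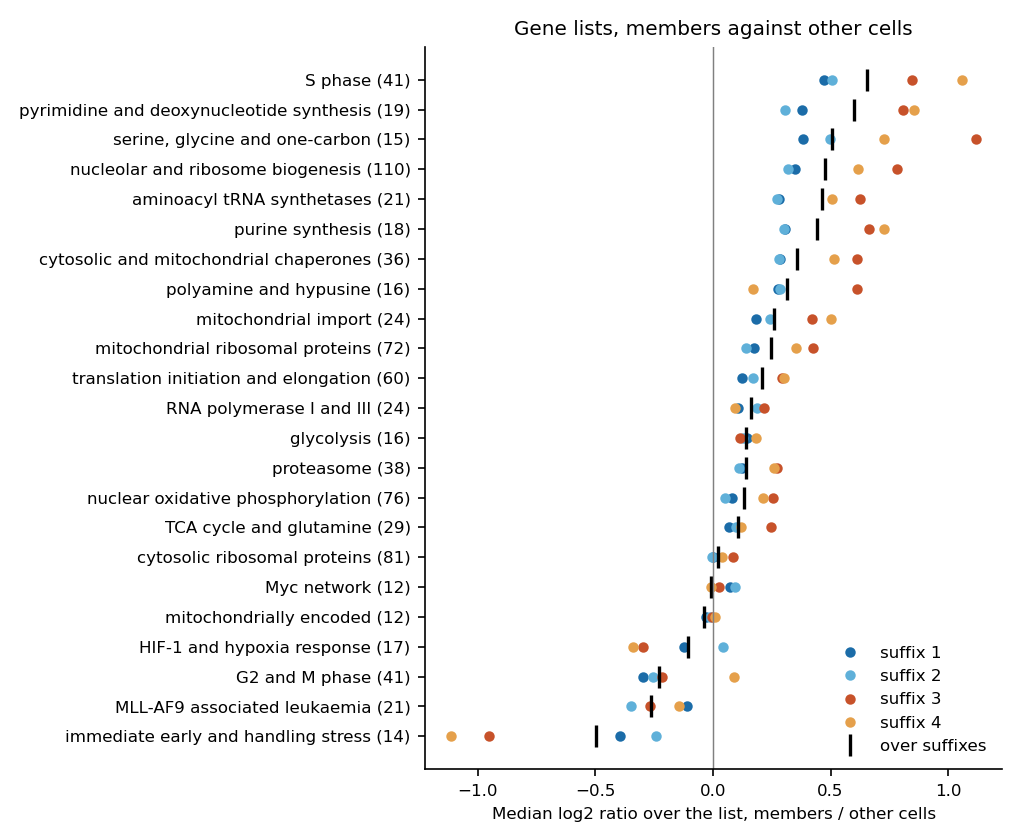
Median log2 ratio of Myc/Fabp5-high cells to other cells for 23 gene lists, with the number of measured genes in parentheses. Circles are medians within a suffix and the black bar is the median over genes of each gene's median over suffixes. S phase, nucleotide, one-carbon and nucleolar lists lie above 0 in each suffix, and the cytosolic ribosomal protein and mitochondrially encoded lists lie near 0.

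The nucleotide and one-carbon synthesis genes that were called were all higher in Myc/Fabp5-high cells, and most genes of these lists were called neither way. Of 18 purine synthesis genes, 4 were higher, 0 lower and the median was 0.44. Gart, which carries 3 steps of purine ring synthesis, was at 133, 123, 138 and 111 CPM in members and at 88.6, 77.0, 54.2 and 49.5 CPM in other cells, without overlap. Atic, which closes the ring (0.82), and Nme1, a nucleoside diphosphate kinase (0.91), were higher too, and Aprt, the adenine salvage enzyme, had a ratio of 0.24 and was not called. Of 19 pyrimidine and deoxynucleotide genes, 7 were higher and 0 lower with a median of 0.60, among them Dctd (1.11), Dctpp1 (0.91) and Dut (0.84), which supply or guard the DNA precursors. Of 15 serine, glycine and one-carbon genes, 6 were higher and 0 lower with a median of 0.51. Against other cells nearest in depth, the medians were 0.18 for the purine, 0.24 for the pyrimidine and 0.28 for the one-carbon list. Among cells called S in suffixes 1 and 2 they were 0.15, 0.17 and 0.23.

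Phgdh, the first enzyme of serine synthesis, was at 217, 167, 71.9 and 87.9 CPM in the members of suffixes 1 to 4. In other cells it was at 115, 92.6, 21.9 and 22.9 CPM. Members of each suffix exceeded their own other cells, by 1.89-fold (1.65 to 2.17), 1.80-fold (1.55 to 2.09), 3.29-fold (2.12 to 4.92) and 3.84-fold (2.52 to 5.67), but members of suffixes 3 and 4 were below the other cells of suffix 1. Phgdh in this respect differed from Gnl3, Ncl, Gart and Hspd1, whose members' values were above all values of other cells. Shmt1, which moves a carbon unit from serine to folate (1.27), Mthfd1, which interconverts the folates (0.97), and Mat2a, which makes S-adenosylmethionine (0.51), were also higher.

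Genes of central carbon metabolism were called higher at shares near the 4.54% of all tested genes, 6.25% in glycolysis and 6.90% in the TCA cycle list. Of 16 glycolysis genes, 1 was higher, Ldha, lactate dehydrogenase A, with 888, 1034, 684 and 818 CPM in members and 606, 753, 341 and 417 CPM in other cells. Gapdh had a ratio of 0.25 and was not called, and the list's median was 0.14. Of 29 genes of the TCA cycle and glutamine use, 2 were higher, Idh3a (0.77) and Got2 (0.54), 0 were lower and the median was 0.11. None of 7 pentose phosphate genes was called, and their median was 0.12. Of 17 genes of fatty acid synthesis and binding, Fabp5 left out, 1 was higher, Fasn, the fatty acid synthase (1.14), and 2 were lower, among them Plin2, which coats lipid droplets (-0.55), and the median was 0.02. Of 15 cholesterol synthesis genes, 1 was higher, Cyp51 (1.01), with a median of 0.12. Of 9 amino acid transporter genes, 1 was higher, Slc1a5, a glutamine carrier (0.48), and 1 was lower, with a median of 0.24.

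Of 16 measured polyamine genes 4 were higher, 2 were lower, 10 were called neither way and the median was 0.31. Srm, spermidine synthase, was at 283, 280, 242 and 205 CPM in members and at 167, 161, 66.7 and 69.3 CPM in other cells, without overlap. Amd1, which makes the aminopropyl donor (0.66), Sms, spermine synthase (0.53), and Mtap, which recycles its by-product (0.89), were higher as well. Sat1, the enzyme that acetylates polyamines for breakdown and export, was lower, with 115, 116, 107 and 70.3 CPM in members and 170, 200, 251 and 272 CPM in other cells. Atp13a2, a lysosomal polyamine exporter, was lower too (-0.74). Odc1, the rate-limiting enzyme and a known Myc target, was at 103, 111, 101 and 79.1 CPM in members and at 83.5, 74.3, 56.0 and 57.1 CPM in other cells and was not called, nor were Eif5a, which carries the polyamine-derived hypusine (0.42), and Oaz1, the antizyme that destroys Odc1 (-0.08). Smox, which oxidises spermine (-0.38), and Paox, which oxidises acetylated polyamines (0.06), were not called either.

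The partners of Myc showed no shared direction. Of 12 measured genes of the Myc network, 1 was higher, 2 were lower and the median was -0.01. Max, the dimer partner, was at 94.5, 92.4, 55.9 and 58.6 CPM in members and at 85.1, 80.9, 65.9 and 71.7 CPM in other cells, so it was above other cells in suffixes 1 and 2 and below them in suffixes 3 and 4. Mxd4, which competes with Myc for Max, was at 42.4, 39.96, 34.6 and 35.2 CPM in members and at 67.1, 69.4, 70.6 and 81.6 CPM in other cells. It was lower in each suffix, without overlap, with folds of 0.63 (0.47 to 0.84), 0.58 (0.43 to 0.75), 0.49 (0.26 to 0.84) and 0.43 (0.22 to 0.76). Mga, a further partner of Max, met the call (0.41), but its folds of 1.27 (0.89 to 1.78), 1.33 (0.97 to 1.81), 1.80 (0.94 to 3.15) and 1.34 (0.66 to 2.46) had intervals that include 1, and its ratio was -0.81 after thinning to 2000 UMIs. Mxi1, another Myc antagonist, had a ratio of -0.11 and was not called.

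Myc/Fabp5-high cells held more transcripts of S phase genes, and some G2 and M phase genes were lower. Of 41 S phase genes, 22 were higher, 0 lower and the median was 0.65, and of 41 G2 and M phase genes 0 were higher, 7 were lower and the median was -0.23. Ung was at 152, 143, 162 and 167 CPM in members and at 93.2, 70.7, 47.7 and 46.2 CPM in other cells. Rad51ap1, a recombination factor (0.94), and Tipin, of the replication fork (0.82), were higher. Cenpa, the centromeric histone, was at 63.3, 93.0, 21.3 and 17.6 CPM in members and at 144, 121, 73.1 and 98.1 CPM in other cells, and Ccnb2, a mitotic cyclin, was lower as well (-1.81). The G2 and M phase median did not keep its direction. It was 0.09 within suffix 4, 0.082 after thinning to 2000 UMIs and 0.11 among cells called S. The median member held 33.0, 31.3, 25.7 and 32.4 UMIs of the list per 10000, more than the 29.7, 26.0, 17.5 and 19.4 of the median other cell.

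Ccnd1, the D-type cyclin of G1, was at 20.8, 22.3, 58.6 and 64.5 CPM in members and at 8.41, 6.47, 8.58 and 8.65 CPM in other cells. The members' values in suffixes 3 and 4 (intervals 36.7 to 88.7 and 40.4 to 97.6) lay above those in suffixes 1 and 2 (13.8 to 30.1 and 15.4 to 31.1), while other cells lay between 6.47 and 8.65 CPM. Ccnd1 rested on 22 to 34 UMIs in the members of a suffix. Ccne1, the cyclin of S phase entry, was higher (1.19), and Cdk4 (0.60) and Cdk6 were not called.

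Phase calls from the S and G2M lists gave S in 67.3% (59.5 to 74.4), 59.3% (52.0 to 66.3), 71.8% (55.1 to 85.0) and 68.4% (51.3 to 82.5) of the Myc/Fabp5-high cells of suffixes 1 to 4. Among other cells S was called in 35.7%, 30.1%, 16.4% and 17.8%. With each cell thinned to 2000 UMIs, which left out 6 members and 108 other cells, the shares were 51.2%, 41.1%, 50% and 50% in members and 26.1%, 21.4%, 14.3% and 14.2% in other cells. G2M was called in 7.27%, 17.5%, 5.13% and 7.89% of members and in 25.8%, 23.1%, 12.8% and 15.1% of other cells. After thinning, the G2M shares were 22.2%, 28.1%, 10.5% and 15.8% in members and 31.4%, 28.1%, 15.5% and 18.1% in other cells with overlapping intervals in all 4 suffixes. The calls come from the same S and G2M genes, and free RNA was not measured.

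Among cells called S, in suffixes 1 and 2 where enough members had that call, the median of the nucleolar list was 0.26, and that of the S phase list was 0.07. Among cells called G1, also in suffixes 1 and 2, the nucleolar list was at 0.36 and the S phase list at 0.27. Against the 3 other cells of the same suffix nearest in UMI total to each member, the nucleolar list was at 0.32. The purine list was at 0.18 and the translation factor list at 0.07. There 95 genes were higher and 120 lower, of which 76 and 93 were also called among all kept cells. Medians of these matched other cells were 7926, 7692, 9361 and 8593.5 UMIs. Without a choice of phase, the nucleolar medians of suffixes 1 and 2 were 0.35 and 0.32, so the value among G1 calls was not smaller, and that among S calls was. The depth-matched value was below the 0.48 of all cells, and the nucleolar list stayed above 0 in each of these comparisons. Without the 5% deepest cells of each suffix, among which doublets would be sought, the nucleolar list was at 0.50.

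**Figure D4:**
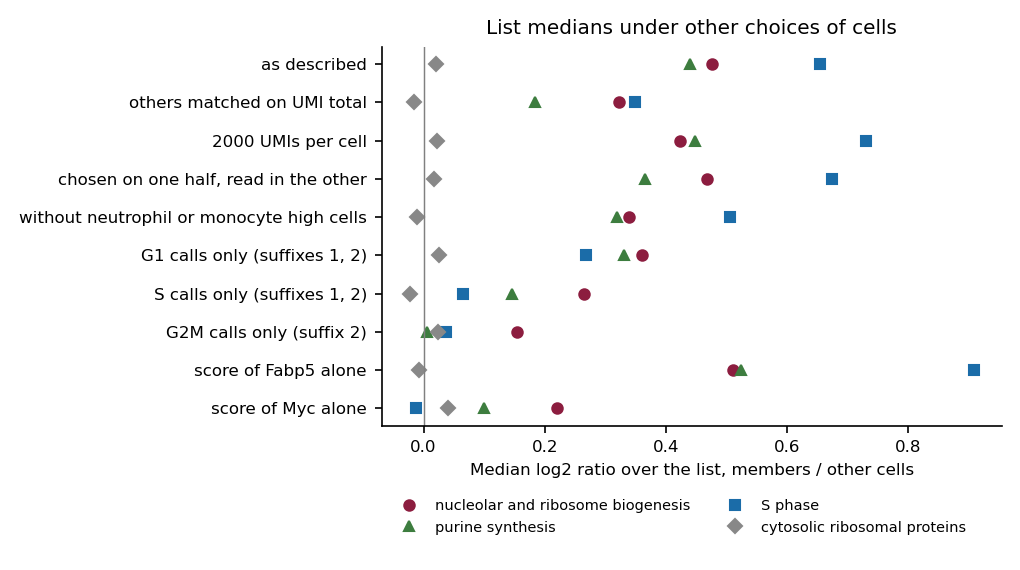
Median log2 ratio of 4 gene lists under other choices of cells, 1 line of points per choice. The nucleolar list (circles) is above 0 under each choice shown, from 0.15 with G2M calls alone to 0.51 with a score of Fabp5 alone, while the S phase list (squares) is near 0 among S calls, among G2M calls and with a score of Myc alone.

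Most neutrophil markers were lower in Myc/Fabp5-high cells than in other cells of the same suffix. Of 12 measured neutrophil markers 10 were lower and 0 higher, with a median of -2.67, or -1.65 where a gene without a UMI in the members of a suffix is set at 3 counts there. S100a8, which encodes calprotectin's smaller subunit, was at 19.4, 24.9, 245 and 589 CPM in members and at 510, 843, 6594 and 3016 CPM in other cells. The folds were 0.038 (0.025 to 0.056), 0.030 (0.021 to 0.041), 0.037 (0.030 to 0.046) and 0.20 (0.17 to 0.22). S100a9, its partner (-4.80), Camp, the cathelicidin (-4.70), and Lyz2, lysozyme (-1.19), were lower. Lyz2 was still at 255, 381, 1603 and 2110 CPM in members, against 455, 775, 4559 and 5422 CPM in other cells. Ltf, lactoferrin, had 0 UMIs in members of all 4 suffixes against 4.29, 5.29, 118 and 65.5 CPM in other cells. With 3 counts as the floor, Ltf was at least 1.92-fold, 2.69-fold, 14.8-fold and 7.45-fold lower.

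Summed over the neutrophil markers, members held 326, 492, 2432 and 5106 CPM. Other cells of suffixes 3 and 4 held 23556 and 18987 CPM against 1506 and 2593 CPM in suffixes 1 and 2, so members of suffixes 3 and 4 held more than the other cells of suffix 1. Cells in the top 20% of the neutrophil or the monocyte marker score numbered 862 and 690 among the other cells of suffixes 3 and 4, and 59 and 88 among those of suffixes 1 and 2. Without such cells on either side, in the 3 suffixes that kept at least 30 members, the neutrophil list was at -0.20, the nucleolar list at 0.34, the purine list at 0.32 and the S phase list at 0.51, with 289 genes higher and 312 lower, and Camp was at 0.038. Of 16 monocyte markers 4 were lower with a median of -0.52, and they summed to 3469, 4312, 5337 and 4901 CPM in members and to 3756, 4630, 6577 and 6782 CPM in other cells. Of 5 macrophage markers 4 were lower with a median of -1.30, among them Apoe (-1.27).

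Markers of immature granulocytes differed in direction between suffixes. They summed to 13746, 17466, 11154 and 9356 CPM in members and to 16784, 19945, 8032 and 8739 CPM in other cells, so members were lower in suffixes 1 and 2 and higher in suffixes 3 and 4. Of 12 such genes 1 was higher, 1 was lower, Ms4a3 (-0.55), and the median was -0.14. Elane, neutrophil elastase of promyelocytes, was at 3216, 5306, 3907 and 2955 CPM in members and at 5151, 6607, 2653 and 2839 CPM in other cells, with folds of 0.62 (0.60 to 0.64), 0.80 (0.78 to 0.82), 1.47 (1.40 to 1.55) and 1.04 (0.98 to 1.11). Ctsg, cathepsin G, had folds of 0.97, 0.92, 1.88 and 1.41. Of 13 stem and progenitor markers 1 was higher, Egfl7 (1.04), 1 was lower, and Spi1, the transcription factor PU.1, had a ratio of -0.50 and was not called, with a list median of -0.27. Of 5 dendritic cell and MHC class II markers 1 was lower with a median of -0.07, of 4 basophil and mast cell markers 1 was lower with a median of -0.62, and of 2 eosinophil, 2 stromal and 1 B cell markers 0 were called. Erythroid, megakaryocyte, and T and NK cell lists had 0 genes at 10 CPM or more, and the erythroid markers summed to between 2.62 and 7.99 CPM in members. Ms4a1, Cd3e, Pf4, Col1a1 and Cdh5 had 0 UMIs in members.

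The HIF-1 and hypoxia list, of interest for the genotype, had 2 of 17 genes higher and 3 lower, with a median of -0.11. Mif, a cytokine gene with a hypoxia response, was at 808, 1038, 626 and 674 CPM in members and at 527, 796, 248 and 328 CPM in other cells. Ndrg1, a stress gene, was lower (-1.25), and so was Lgals3, which encodes galectin-3 and is abundant in macrophages, at 65.5, 115, 253 and 234 CPM in members and 89.8, 154, 567 and 585 CPM in other cells. Among 14 genes of the immediate early response and of handling stress, 5 were lower and 0 higher, Klf2 among them (-1.24), and the median was -0.50. Of 19 interferon response genes 3 were lower with a median of -0.05, of 13 p53 targets 1 was lower with a median of -0.30, of 20 integrated stress and unfolded protein genes 1 was higher and 2 lower with a median of 0.10, and of 38 proteasome genes 0 were called with a median of 0.14. Of 17 genes for G1 cyclins and E2F control 2 were higher and 2 lower with a median of 0.21, and of 5 small nucleolar RNA host genes 0 were called with a median of 0.05.

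The nucleolar level was graded over the score. In suffix 3 the list summed to 5582 CPM in cells with a score of 0, 7794 CPM up to a score of 0.5, 9761 CPM from there to the threshold, 11072 CPM in members below the median member score and 12524 CPM in the 14 members above it. In suffix 1 the same steps gave 8434, 10805, 11304, 12855 and 13561 CPM. The level was thus higher in each step of these 2 suffixes, and cells between a score of 0.5 and the threshold were nearer to members than to cells with a score of 0. Median depth went from 4645 UMIs in cells of suffix 3 with a score of 0 to 9220 UMIs in the next step. A score above 0 and up to 0.5 needs a deep cell, since a single UMI in a shallow cell scores higher. Depth thus moved with the first step by construction, and its part in the nucleolar level was not tested. In suffix 1 the S phase list went from 2639 CPM at a score of 0 to 4176, 4194, 4938 and 4988 CPM, and the cytosolic ribosomal proteins stayed between 287733 and 292152 CPM. In suffix 3 the ribosomal proteins went from 318585 CPM at a score of 0 to 354608, 341412, 351011 and 331096 CPM, and they were also higher in the next step than at a score of 0 in suffixes 2 and 4.

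**Figure D5:**
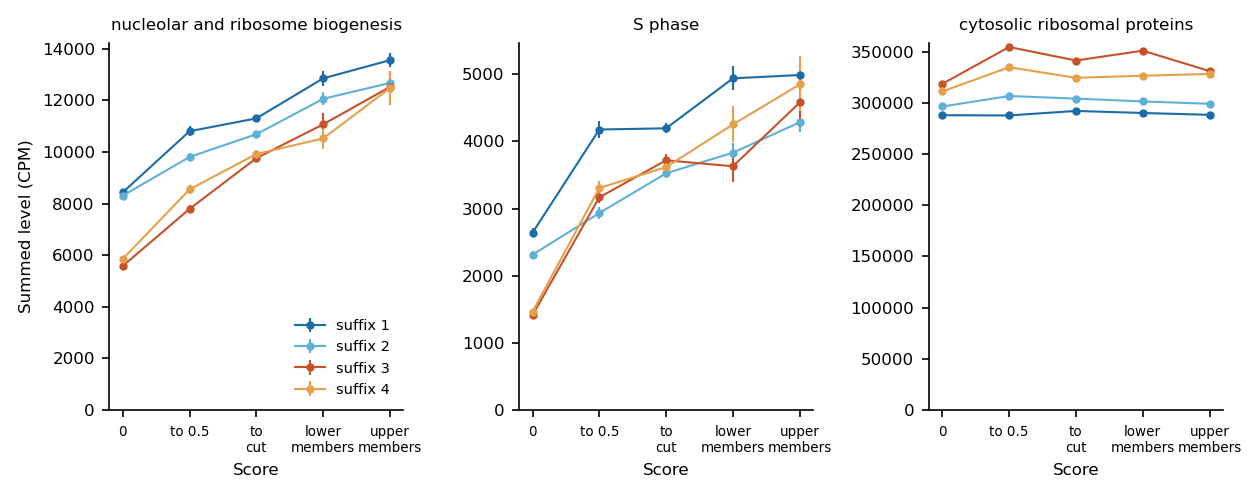
Summed level of 3 gene lists by step of the score, 1 line per suffix. The vertical axes are CPM starting at 0, bars are 95% Poisson intervals, and the steps are a score of 0, up to 0.5, up to the threshold, and members below and above the median member score. Nucleolar genes climb over the steps in each suffix, from 5582 to 12524 CPM in suffix 3, and ribosomal protein genes do not climb at every step in any suffix.

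Members with and without Myc UMIs could be compared in suffixes 1 and 2. The 120 and 158 members with UMIs of both genes had nucleolar medians of 0.32 and 0.35, and the 44 and 35 members with Fabp5 alone had 0.44 and 0.30. The S phase list was at 0.43 and 0.51 in the former and at 0.48 and 0.46 in the latter. The G2 and M phase list was at -0.42 and -0.33 in members with both genes and at 0.13 and 0.15 in members with Fabp5 alone. Choosing the same number of cells on 1 gene also gave a lower G2 and M phase median with Myc than with Fabp5, and the nucleolar and S phase medians then differed as well. With Fabp5 alone, 370 genes were higher and 380 lower, and the nucleolar, S phase and G2 and M phase lists were at 0.51, 0.91 and 0.03. With Myc alone, 22 genes were higher and 93 lower, and the lists were at 0.22, -0.01 and -0.74. Myc was counted at a median of 1 UMI per member, so its choice of cells rested on fewer molecules than that of Fabp5. A single UMI scores higher in a shallower cell, so depth entered the choice by Myc alone by construction. Its part in these differences was not tested.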

How the data were processed

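The deposited table holds raw UMI counts, whole numbers with no normalization by the authors, for 27998 gene symbols and 5664 barcodes. Per the submitters' processing notes, Cell Ranger 1.3, Seurat 2.3.4 and the mm10 build were used. The submitters' annotation is not stated there, and positions come from GENCODE M21 (GRCm38).

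No barcode had fewer than 1189 UMIs. UMIs were summed over members and over other cells of a suffix, divided by their totals and multiplied to CPM. Ties in the score were broken in a seeded random order. Intervals are exact Poisson (CPM), exact binomial (shares) and exact conditional binomial (folds), at 95%. A count of 0 allows up to 3 counts, or 1.97 to 8.79 CPM in members. Reads of ribosomal protein genes, Eef1a1, Gapdh and Npm1, which have near-identical pseudogene copies, may have been split or lost in counting. A suffix needed 30 cells on both sides. Phases were called with scanpy 1.11.5 in Python 3.11.15. Scaling alternatives used edgeR TMM and DESeq2 size factors. The rules were tested on simulated Poisson sums with known folds. These hold no variation between cells and no choice of cells by score, so that test does not cover either. Scrublet was run per suffix. Groups were not compared, since the sources used here do not tie suffixes to samples.

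The members and lists were chosen with earlier results of these data known. Named genes are the 15 higher and 15 lower genes with the largest ratios at 20 CPM or more, the 2 most abundant and up to 3 called genes with the largest ratios of each list, called markers, any measured gene of the Myc and polyamine lists, and a few named after their values or promoter motifs were seen. Not all of them are in the text, and some are not reported here.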

Additional observations from a re-analysis of the deposited data

Results flagged for a closer look

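Of the 208 barcodes left out for more than 10% mitochondrial transcripts, 14 reached the score of the lowest member, a share of 6.73% (exact binomial interval 3.73 to 11.0). The share is above the limit of 3 counts, in barcodes that no comparison above used, and its interval includes the 7.99% of kept cells that were members.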

How the results depend on the processing

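The counts of genes and the list medians were recomputed under 29 alternatives, of which 3 were chosen after seeing the data: cells called G1, and cells called S, without the cells highest in neutrophil or monocyte markers, and all cells without barcodes found in 2 suffixes. These alternatives gave 2175 values of 75 called genes. Of these values, 37 changed sign and 1794 stayed within 1 SD of the values in the 4 suffixes. The cause of a change was not tested. Leaving out a suffix, a larger pseudocount and other filters on mean CPM cannot change the sign of a called gene. Values under those alternatives are in the total and say nothing about whether a sign is stable. Leaving out each suffix in turn gave 350 to 440 higher and 376 to 617 lower genes. Medians were then 0.37 to 0.58 for the nucleolar, 0.17 to 0.24 for the translation factor and 0.31 to 0.53 for the purine list. A gene had to pass in every usable suffix, so the rule is easier to meet where fewer suffixes are left. Counts from fewer suffixes, here and below, are not comparable with the 299 and 336. With a mean of at least 50 CPM, which tests fewer genes, 137 were higher and 120 lower, with no filter 696 were lower, and with the top 4% of cells 593 were lower in the 2 suffixes left. A score of Myc alone gave 22 and 93 genes, medians of 0.22 (nucleolar), 0.051 (translation factors), 0.0996 (purine), -0.047 (pyrimidine), -0.0125 (S phase) and 1.18 (eosinophil markers), and ratios of -0.081 for Phb, -0.040 for Sms, -0.12 for Cyp51, -0.11 for Uhrf1 and -0.29 for Ccne1. A score of Fabp5 alone gave member shares of 12.2% in suffix 2 and 3.94% in suffix 3. Thinning to 2000 UMIs gave 178 higher genes, a share of 13.2% in suffix 2 and ratios of -0.091 for Timm9, -0.067 for Cyp51 and -0.81 for Mga. Other cells nearest in depth gave 95 and 120 genes, medians of 0.073 (translation factors), 0.18 (purine) and 0.019 (basophil and mast cell markers), and 0.012 for Lgals3. Of the 299 higher and 336 lower genes, 90 and 94 were called again after thinning, and 76 and 93 against these matched cells. With members from a random part of the UMIs, 138 and 151 were called again. Scores of Myc alone and Fabp5 alone kept 11 and 38, and 220 and 211. TMM factors kept 297 and 308. Cells called G1 gave 522 and 942 genes in 2 suffixes and 0.67 for Cenpa, and without neutrophil or monocyte high cells 536 and 881 genes and 0.72 for Cenpa. Cells called S gave 0.089 (translation factors), 0.15 (purine), -0.0042 for Mtap and -0.019 for Tipin, and without neutrophil or monocyte high cells 0.25 (nucleolar), 0.091, 0.15, -0.073 for Mtap, -0.0001 for Tipin and 0.085 for Camp. Leaving out those high cells alone gave 0.038 for Camp. Cells called G2M left 1 suffix with 34 members, where 1327 and 1894 genes passed, with medians of 0.15 (nucleolar), 0.058 (translation factors), 0.0055 (purine), -0.0019 (pyrimidine), 0.099 (macrophage markers) and 0.017 (basophil and mast cell markers). There the ratios were -0.50 for Rrp1b, -0.091 for Eif3b, -0.70 for Dctpp1, -0.10 for Phgdh, -0.0026 for Mat2a, -1.05 for Amd1, -0.45 for Got2, 0.062 for Plin2, -1.08 for Cyp51, -0.21 for Slc1a5, -4.46 for Rad51ap1, -0.27 for Tipin, -1.68 for Ccnd1, -1.59 for Ccne1, 0.13 for Cenpa, -0.0425 for Galk1, -0.37 for Mybbp1a, -0.050 for Pno1, -0.16 for Tsr1 and -0.22 for Utp18. No paired analysis was possible because no replicate number pairs samples across groups; members and other cells were compared within each suffix throughout. Depth limits suffixes 3 and 4, with 39 and 38 members, where 1 UMI of a gene weighs more than in suffixes 1 and 2.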

Other observations

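Summed list levels of Myc/Fabp5-high cells varied less over the 4 suffixes than those of other cells for several growth lists and not for others. Members were chosen by the same score threshold in each suffix. Cells with a score of 0 made up 39.8%, 39.6%, 74.3% and 73.5% of the kept cells of suffixes 1 to 4. The spreads are therefore a description. The highest suffix exceeded the lowest by 1.17-fold in members and 1.39-fold in other cells for purine synthesis, by 1.23-fold and 1.63-fold for serine, glycine and one-carbon genes, by 1.23-fold and 1.46-fold for chaperones, and by 1.26-fold and 1.69-fold for S phase genes. For cytosolic ribosomal proteins the spreads were 1.19-fold and 1.13-fold, for MLL-AF9 genes 1.20-fold and 1.11-fold, and for neutrophil markers 15.7-fold and 15.6-fold. The neutrophil markers of other cells, which ran from 1506 to 23556 CPM, moved with the suffixes in which growth lists were low in other cells, and their part in this was not tested.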
